A study of Mus musculus with 14 samples.

Results

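The 10 genes described here encode chaperones, sensors and targets of the unfolded protein response, out of 49585 genes in the deposited table. They are Hspa5, Hsp90b1, Xbp1, Atf6, Dnajb9, Herpud1, Sdf2l1, Pdia4, Calr and Creld2, and they were chosen by name, each row being found through its Ensembl identifier in the GENCODE mouse M21 annotation. RNA was measured in C2C12 cells, an established line of mouse myoblasts, the precursors that multiply and then fuse into muscle fibres. All cells carried a short hairpin RNA, either against Foxm1, which encodes a cell cycle transcription factor of the forkhead family (shFoxM1), or a control hairpin (shControl). The labels give 4 libraries of activated shFoxM1 cells, 3 of activated shControl cells, 4 of quiescent shFoxM1 cells and 3 of quiescent shControl cells, whereas the design text speaks of triplicates. Quiescence was modelled by holding trypsinized cells in a semi-solid methylcellulose medium, and the labels do not tell how, or for how long, cells were activated. The labels do not say whether the hairpins were carried by a clone or a pool, or whether libraries of a group came from separate cultures. Each p therefore reflects the spread among libraries, part or all of which may be technical.

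Proteins that enter the secretory pathway fold in the endoplasmic reticulum, helped by the chaperones of its lumen. When unfolded proteins accumulate there, the membrane sensors Ire1 (gene Ern1), Perk (gene Eif2ak3) and Atf6 signal to the nucleus: Ire1 splices the Xbp1 messenger RNA, Perk slows translation and favours the production of Atf4, and Atf6 is cut by proteases of the Golgi to release a transcription factor. Chaperone genes such as Hspa5, which encodes the Hsp70 protein BiP, are textbook targets of this response, and in muscle cells it is known to be active during differentiation.

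Atf6 and Xbp1 are known to act through stress elements in the promoters of such genes, so the sequences that hold these letters are shown before the values. RefSeq promoter windows (GRCm38.p6, 250 bases before to 50 after the start site) were matched for 9 of the 10 genes, all but Atf6. The element called ERSE was searched as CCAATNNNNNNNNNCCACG on both strands and stood in 39 of 32851 windows (0.119%). Of the 9 genes, 4 had it, namely Hspa5, Hsp90b1, Calr and Creld2. ERSE-II, searched as ATTGGNCCACG, stood in 12 windows (0.0365%), 1 of them that of Herpud1. The CARE core TGATGNAA, letters that Atf4 dimers are known to bind, stood in 1304 windows (3.97%), again including that of Herpud1 and of no other of the 9. The core letters TGACGTGG of the element UPRE stood in 222 windows (0.676%) and in none of the 9. A match describes letters in a window and is no measure of binding. Only exact letters within the window were searched, so a missing match does not show that an element is absent.

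The windows of Hspa5 (chr2:34771840-34772139, plus strand) and Herpud1 (chr8:94386179-94386478, plus strand) are printed whole. Among activated shFoxM1 libraries, Hspa5 RNA was highest in replicate 3 and Herpud1 RNA in replicate 4, as described further on. In activated shControl cells both were highest in replicate 3. Any link between these levels and the letters was not tested. Capitals mark the ERSE in Hspa5, at -65 to -47 from the start, and in Herpud1 the CARE core on the minus strand, at -112 to -105, followed by ERSE-II on the plus strand, at -52 to -42.
Hspa5: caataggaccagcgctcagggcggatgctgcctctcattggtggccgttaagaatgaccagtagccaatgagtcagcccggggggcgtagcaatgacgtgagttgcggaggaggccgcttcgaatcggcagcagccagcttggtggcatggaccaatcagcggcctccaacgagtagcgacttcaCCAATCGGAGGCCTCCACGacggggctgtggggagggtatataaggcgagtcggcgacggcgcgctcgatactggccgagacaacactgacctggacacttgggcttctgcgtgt
Herpud1: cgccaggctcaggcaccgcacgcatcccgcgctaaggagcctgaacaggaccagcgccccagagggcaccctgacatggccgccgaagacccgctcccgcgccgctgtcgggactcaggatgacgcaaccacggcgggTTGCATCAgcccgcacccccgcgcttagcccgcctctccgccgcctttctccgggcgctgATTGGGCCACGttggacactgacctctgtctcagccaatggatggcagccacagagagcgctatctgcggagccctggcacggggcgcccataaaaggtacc

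Of the other 3 genes with an ERSE the 19 letters alone are printed, 5′ to 3′ along the gene's strand. Hsp90b1 had 2 of them in its window (chr10:86705395-86705694, minus strand), on the gene's own strand at -212 to -194 and reversed at -107 to -89. Calr (chr8:84846882-84847181, minus strand) and Creld2 (chr15:88819396-88819695, plus strand) each had a reversed one, at -162 to -144 and at -126 to -108.
Hsp90b1 upstream: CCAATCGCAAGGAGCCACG
Hsp90b1 downstream: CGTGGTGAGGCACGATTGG
Calr: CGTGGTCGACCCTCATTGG
Creld2: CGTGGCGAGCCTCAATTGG

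**Figure D1:**
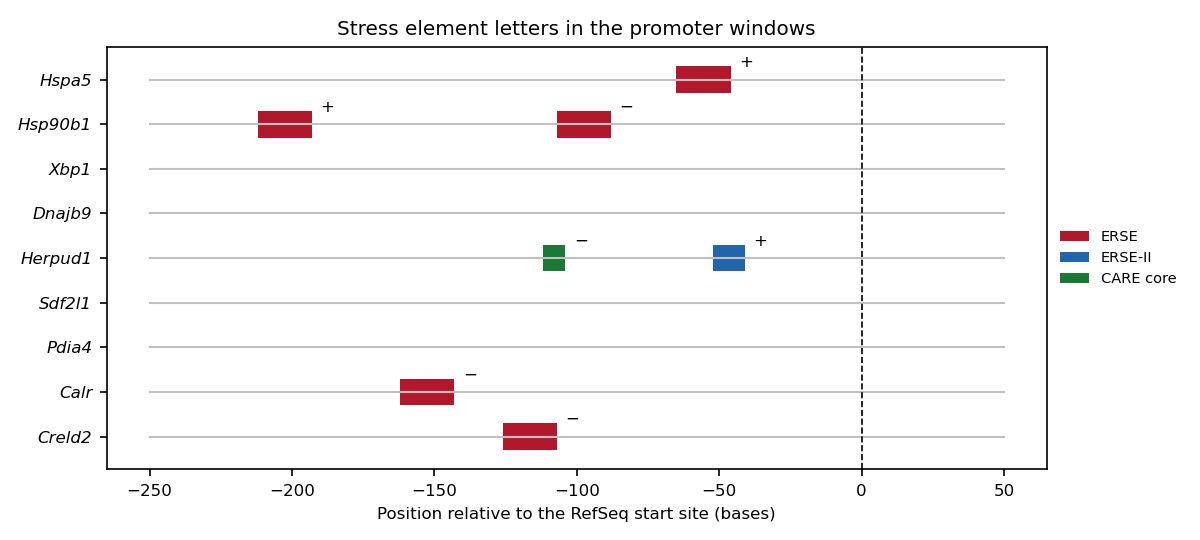
Positions of the stress element letters in the RefSeq promoter windows of 9 genes, in bases from the start site at 0 (dashed line); colours give the element and the signs its strand relative to the gene. Hspa5, Hsp90b1, Calr and Creld2 hold an ERSE and Herpud1 holds an ERSE-II and a CARE core, while Xbp1, Dnajb9, Sdf2l1 and Pdia4 hold none of the 4 searched.

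Values are FPKM, which divide a gene's fragments by transcript length and by library size, so that levels of different genes can be set side by side. Estimated depth was 2.73e+07 to 3.62e+07 reads per library, and the lowest value of the 10 genes, 5.61 FPKM of Dnajb9, stood for about 221 reads. The myoblast markers Myod1, Myf5, Des, Cdh15, Ncam1 and Itga7 were all detected, with summed levels of 120 to 228 FPKM in activated shFoxM1, 139 to 286 in activated shControl, 234 to 412 in quiescent shFoxM1 and 275 to 439 in quiescent shControl libraries. Of 10 markers of differentiated muscle, such as Myog and Acta1, 9 passed the filter on low values, and their sums were 22.3 to 118 FPKM in activated shFoxM1 and 65.7 to 84.6 in activated shControl libraries, against 90.5 to 1023 in quiescent shFoxM1 and 285 to 1884 in quiescent shControl libraries. These sums move with the state of the cells, and their part in the differences below was not tested. Epithelial, endothelial and adipocyte markers stayed under 1 FPKM, as did the immune markers Ptprc and Adgre1, while Cd68 reached 13.56 FPKM. The immune sum, nearly all Cd68, was 1.82 to 8.95 FPKM in activated shFoxM1 and 4.12 to 13.6 in activated shControl libraries. In quiescent libraries it was 1.16 to 3.06 FPKM with shFoxM1 and 1.04 to 1.57 with shControl. It thus moved with the state as well, and its part was not tested. In bulk RNA, fewer cells of a kind and less RNA per cell cannot be told apart. Foxm1 itself averaged 17.0 ± 7.23 FPKM in activated shFoxM1 and 35.8 ± 1.13 in activated shControl libraries, a log2 fold change of -1.11 ± 0.32 (SE) that was not called (adjusted p = 0.624) although all 4 shFoxM1 libraries were below all 3 shControl ones. In quiescent cells it averaged 10.0 ± 3.93 FPKM with shFoxM1 and 15.5 ± 7.34 with shControl, with overlapping groups. Among the activated shFoxM1 libraries, replicate 3 had the highest Foxm1 level, 27.58 FPKM, against 11.21 to 14.74 in the other 3.

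Over all 14 libraries the genes fell into a high and a lower tier. Calr, a calcium-binding lectin chaperone of the lumen, averaged 443 FPKM, Hspa5 306 FPKM and Hsp90b1, which encodes the Hsp90 protein Grp94, 235 FPKM. Xbp1 averaged 48.7 FPKM and the disulfide isomerase Pdia4 48.1 FPKM. Herpud1, a membrane protein of the degradation machinery, averaged 34.2 FPKM, and Creld2, a stress-induced protein of the endoplasmic reticulum, 33.6 FPKM. The sensor Atf6 (16.7 FPKM), the Hspa5 partner Sdf2l1 (15.2 FPKM) and the Hsp40 cochaperone Dnajb9 (9.67 FPKM) were the lowest. Neighbours in this order had overlapping ranges over the 14 libraries, with 2 exceptions. The lowest Hsp90b1 value, 134.34 FPKM, was above the highest value of any of the 7 lower genes, 80.33 FPKM of Herpud1, and the lowest Creld2 value, 23.81 FPKM, was just above the highest Atf6 value, 22.42 FPKM.

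**Figure D2:**
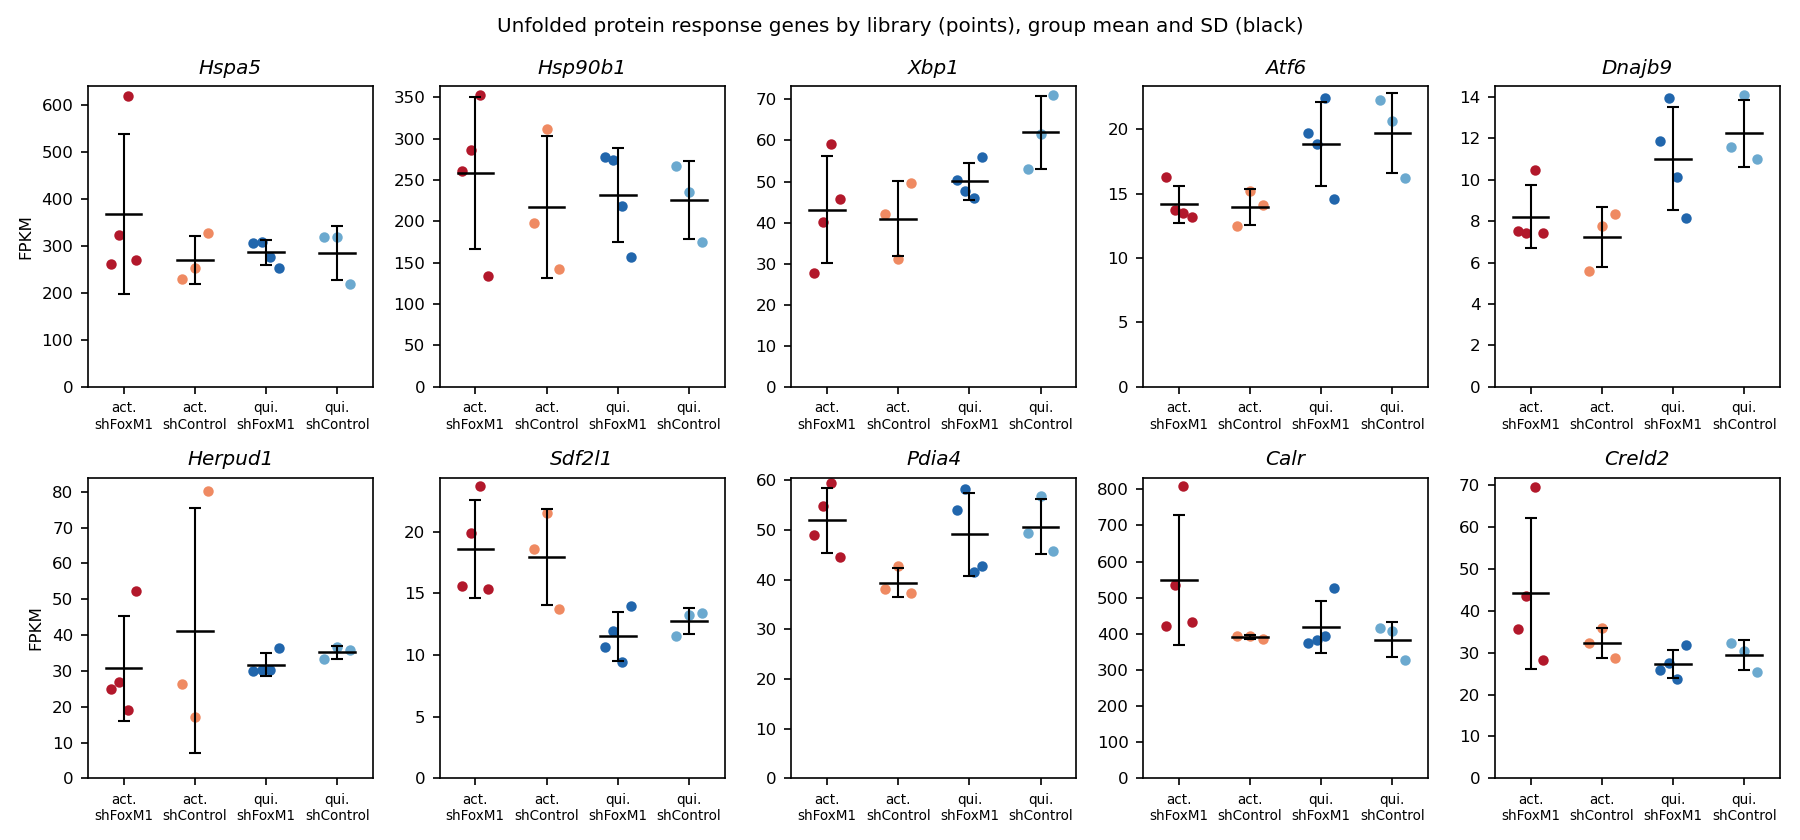
FPKM of the 10 genes in each library (points, in replicate order), with the mean and SD of each group in black; groups run from activated shFoxM1 and activated shControl to quiescent shFoxM1 and quiescent shControl, and every axis starts at 0. By group mean, Dnajb9 and Atf6 sit lower in activated than in quiescent cells, with overlapping groups in shFoxM1 cells, and Sdf2l1 sits higher. Of these, only Dnajb9 in shControl cells and Sdf2l1 in shFoxM1 cells had a limma adjusted p below 0.05. For Hspa5 (619.03 FPKM), Calr (808.72 FPKM) and Creld2 (69.55 FPKM), 1 activated shFoxM1 library stands far above its group.

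The first comparison set activated against quiescent cells with the same hairpin. Of the 10 genes, 2 were called in shFoxM1 cells, where 30.7% of the genes tested were called, and 1 in shControl cells, where 28.3% were. In shFoxM1 cells the mean FPKM of Sdf2l1 and of Creld2 in the activated state were each 1.62 times the quiescent mean, and in shControl cells that of Dnajb9 was 0.591 times its quiescent level. The other 7 genes, Hspa5, Hsp90b1, Xbp1, Atf6, Herpud1, Pdia4 and Calr, were called in neither. A gene was called at a limma adjusted p below 0.05 over the 12432 genes tested, and fold changes are differences of mean log2(FPKM + 1), which understate the change of low genes. n is 4 libraries for each shFoxM1 group and 3 for each shControl group.

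Of the sensors and transcription factors, Atf6 (chr1:170704674-170867771, minus strand; GRCm38, as all gene positions here) had 16.29, 13.72, 13.50 and 13.19 FPKM in activated shFoxM1 and 12.48, 15.24 and 14.15 FPKM in activated shControl libraries. It had 19.71, 18.84, 22.42 and 14.55 FPKM in quiescent shFoxM1 and 22.26, 20.66 and 16.25 FPKM in quiescent shControl libraries. In shControl cells all activated libraries lay below all quiescent ones, and in shFoxM1 cells the groups overlapped through quiescent replicate 4. The log2 fold change was -0.38 ± 0.15 in shFoxM1 cells (adjusted p = 0.0660, exact permutation p = 0.0571) and -0.46 ± 0.17 in shControl cells (adjusted p = 0.0557, exact permutation p = 0.1, the smallest that 3 against 3 libraries allow), past the threshold in neither. It passed in shFoxM1 cells with median-of-ratios scaling (-0.42, adjusted p = 0.0273) and in the fit without quiescent shFoxM1 replicate 4 (-0.49, 0.0124). In shControl cells it passed in the fits without quiescent shControl replicate 3 (-0.59, adjusted p = 0.0355) or quiescent shFoxM1 replicate 4 (-0.46, 0.0265) and with the replicate block (-0.46, 0.0487).

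Xbp1 (chr11:5520659-5525893, plus strand), whose spliced form encodes the transcription factor of the Ire1 branch, had 27.84, 40.02, 59.07 and 45.75 FPKM in activated shFoxM1 and 42.09, 31.24 and 49.63 FPKM in activated shControl libraries. The quiescent values were 50.37, 47.74, 45.88 and 56.05 FPKM in shFoxM1 and 53.17, 61.57 and 71.10 FPKM in shControl libraries. The shControl groups did not overlap, and the shFoxM1 groups did. The difference was -0.25 ± 0.20 in shFoxM1 cells (adjusted p = 0.363) and -0.60 ± 0.23 in shControl cells (adjusted p = 0.0642), which was not called but passed in the fits without activated shControl replicate 3 (-0.75, adjusted p = 0.0390), activated shFoxM1 replicate 1 (-0.60, 0.0350) or activated shFoxM1 replicate 3 (-0.60, 0.0428). Gene-level FPKM do not separate spliced from unspliced Xbp1 RNA.

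Of the cochaperones, Dnajb9 (chr12:44205559-44210326, minus strand), which encodes ERdj4 and is known to bind both Hspa5 and Ire1, had 7.51, 7.44, 10.50 and 7.42 FPKM in activated shFoxM1 and 5.61, 7.76 and 8.34 FPKM in activated shControl libraries. It had 11.87, 13.95, 10.15 and 8.15 FPKM in quiescent shFoxM1 and 11.58, 14.11 and 11.03 FPKM in quiescent shControl libraries. Every activated shControl library was below every quiescent one, while activated shFoxM1 replicate 3 was above 2 of the quiescent shFoxM1 libraries. Dnajb9 was called lower in shControl cells (log2 fold change -0.69 ± 0.20, adjusted p = 0.0212, exact permutation p = 0.1, lower in 3 of 3 libraries). The call was lost without activated shControl replicate 1 (-0.54, adjusted p = 0.0911) or quiescent shControl replicate 2 (-0.59, 0.0958), within a range of 0.00447 to 0.0958 over all settings. In shFoxM1 cells the value was -0.37 ± 0.18 (adjusted p = 0.125), and -0.49 (0.0670) without activated replicate 3, and it was called without quiescent replicate 4 (-0.50, 0.0332).

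Sdf2l1 (chr16:17130138-17132383, minus strand), a lumenal protein known to work with Hspa5 and its Hsp40 partners, moved the other way. It had 15.61, 19.90, 23.70 and 15.34 FPKM in activated shFoxM1 libraries, against 10.68, 11.96, 9.42 and 14.01 FPKM in quiescent shFoxM1 libraries. The groups did not overlap, the lowest activated library being just above quiescent replicate 4. Sdf2l1 was called higher (0.64 ± 0.17, adjusted p = 0.0128, exact permutation p = 0.0286, the smallest that 4 against 4 libraries allow, higher in 4 of 4 libraries). In shControl cells it had 18.64, 21.52 and 13.78 FPKM in activated and 11.54, 13.27 and 13.43 FPKM in quiescent libraries, again without overlap, but the difference was not called (0.45 ± 0.20, adjusted p = 0.107). Without activated shControl replicate 3 it was (0.62, adjusted p = 0.0382).

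Creld2 (chr15:88819646-88826683, plus strand), whose product is known to be secreted under stress, had 35.57, 43.44, 69.55 and 28.21 FPKM in activated shFoxM1 libraries, against 25.86, 27.63, 23.81 and 31.81 FPKM in quiescent shFoxM1 libraries. Replicate 3 was the highest, and replicate 4 fell within the quiescent range. Creld2 was called higher (0.60 ± 0.21, adjusted p = 0.0421, exact permutation p = 0.0571, above the quiescent range in 3 of 4 libraries). Without activated shFoxM1 replicate 3 the value was 0.36 (adjusted p = 0.122), and the call was also lost without activated shFoxM1 replicate 2, activated shControl replicate 1, quiescent shFoxM1 replicate 1, 2 or 3, or quiescent shControl replicate 2 (adjusted p = 0.0537 to 0.112). Over all settings the adjusted p ran from 0.00850 to 0.254, with calls in 9 of 23. In shControl cells Creld2 had 32.29, 35.86 and 28.84 FPKM in activated and 32.22, 30.47 and 25.36 FPKM in quiescent libraries, which overlapped (0.14 ± 0.24, adjusted p = 0.700).

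Of the abundant chaperones, Hspa5 (chr2:34771970-34777547, plus strand) had 260.76, 323.12, 619.03 and 268.80 FPKM in activated shFoxM1 and 230.17, 252.83 and 327.88 FPKM in activated shControl libraries. It had 306.17, 308.84, 275.69 and 252.94 FPKM in quiescent shFoxM1 and 317.81, 318.26 and 219.32 FPKM in quiescent shControl libraries. Apart from activated shFoxM1 replicate 3, all 13 libraries lay between 219.32 and 327.88 FPKM, and all groups overlapped. The activation difference was 0.27 ± 0.24 in shFoxM1 cells (adjusted p = 0.412), and -0.01 without that library, and -0.07 ± 0.27 in shControl cells (adjusted p = 0.863).

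Hsp90b1 (chr10:86690209-86705509, minus strand) had 261.05, 286.06, 352.77 and 134.34 FPKM in activated shFoxM1 and 197.72, 311.26 and 142.79 FPKM in activated shControl libraries. Its quiescent values were 278.29, 274.79, 218.57 and 156.91 FPKM in shFoxM1 and 267.09, 235.75 and 174.82 FPKM in shControl libraries. The lowest libraries of all were activated shFoxM1 replicate 4 and activated shControl replicate 3, and groups overlapped in both comparisons (0.11 ± 0.30 in shFoxM1 cells, adjusted p = 0.814 and -0.11 ± 0.34 in shControl cells, adjusted p = 0.834). Exons of Hsp90b1 overlap those of annotated neighbours, and how strand was used in counting is not known here, so reads of the overlap cannot be told apart.

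Calr (chr8:84841850-84846934, minus strand) had 422.48, 535.16, 808.72 and 432.34 FPKM in activated shFoxM1 and 394.40, 394.03 and 385.91 FPKM in activated shControl libraries. The quiescent libraries had 375.21, 382.32, 392.77 and 526.45 FPKM with shFoxM1 and 415.50, 408.06 and 328.80 FPKM with shControl. The activated shControl values were close together, whereas quiescent shFoxM1 replicate 4 exceeded 2 of the activated shFoxM1 libraries. The activation difference was 0.35 ± 0.19 in shFoxM1 cells (adjusted p = 0.174) and 0.04 ± 0.22 in shControl cells (adjusted p = 0.919).

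Pdia4 (chr6:47796141-47813430, minus strand), also known as ERp72, had 48.97, 54.72, 59.38 and 44.46 FPKM in activated shFoxM1 and 38.10, 42.65 and 37.36 FPKM in activated shControl libraries. It had 54.03, 58.26, 41.42 and 42.66 FPKM in quiescent shFoxM1 and 49.32, 56.71 and 45.79 FPKM in quiescent shControl libraries. In shControl cells the groups did not overlap, and the difference was not called (-0.35 ± 0.16, adjusted p = 0.116). In shFoxM1 cells they overlapped (0.08 ± 0.14, adjusted p = 0.684).

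Herpud1 (chr8:94386438-94395377, plus strand) had the widest range of the 10 genes, 4.69-fold between its lowest and highest library. It had 24.85, 26.87, 18.98 and 52.24 FPKM in activated shFoxM1 and 26.20, 17.14 and 80.33 FPKM in activated shControl libraries, against 30.05, 30.17, 30.29 and 36.45 FPKM in quiescent shFoxM1 and 33.24, 36.65 and 35.73 FPKM in quiescent shControl libraries. The quiescent libraries were close together, and 1 library of each activated group stood above all of them while the others stood below. The group difference was -0.14 ± 0.36 in shFoxM1 cells (adjusted p = 0.801) and -0.08 ± 0.42 in shControl cells (adjusted p = 0.903). Without activated shControl replicate 3 the shControl value was -0.70 (adjusted p = 0.0989).

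The 2 genes called on activation in shFoxM1 cells were both higher, where 18.3% of the genes tested were called higher and 12.3% lower. The 1 called in shControl cells was lower, where 11.7% were called higher and 16.5% lower. The groups did not overlap for 1 of 10 genes in shFoxM1 cells (27.8% of the genes tested) and for 5 of 10 in shControl cells (44.1%). These shares of the 10 genes are near or below those of all genes. The median log2 fold change of the 10 genes was 0.10 in shFoxM1 and -0.09 in shControl cells, beside 0.03 and -0.11 over all genes tested. Scaling each library to an equal sum of protein-coding genes shifted the median of all genes to -0.24 in shFoxM1 and -0.41 in shControl cells and cut the share of higher calls among all calls to 23.9 and 12.4%, in place of 59.8 and 41.5%. Median-of-ratios scaling gave shares of 53.0 and 54.5%. Under the equal sums Sdf2l1 and Creld2 were no longer called in shFoxM1 cells (0.35, adjusted p = 0.0982, and 0.30, adjusted p = 0.254), where Xbp1 (-0.56), Atf6 (-0.67) and Dnajb9 (-0.66) were called lower instead. In shControl cells Xbp1, Atf6 and Pdia4 then joined Dnajb9 (-0.95, -0.80, -0.70 and -1.01). The signs of Dnajb9, Atf6, Xbp1 and Sdf2l1 were the same under the 3 scalings with both hairpins, while those of Hspa5, Hsp90b1, Herpud1, Calr and Creld2 differed between scalings in shControl cells, and those of Hspa5, Hsp90b1 and Pdia4 in shFoxM1 cells.

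**Figure D3:**
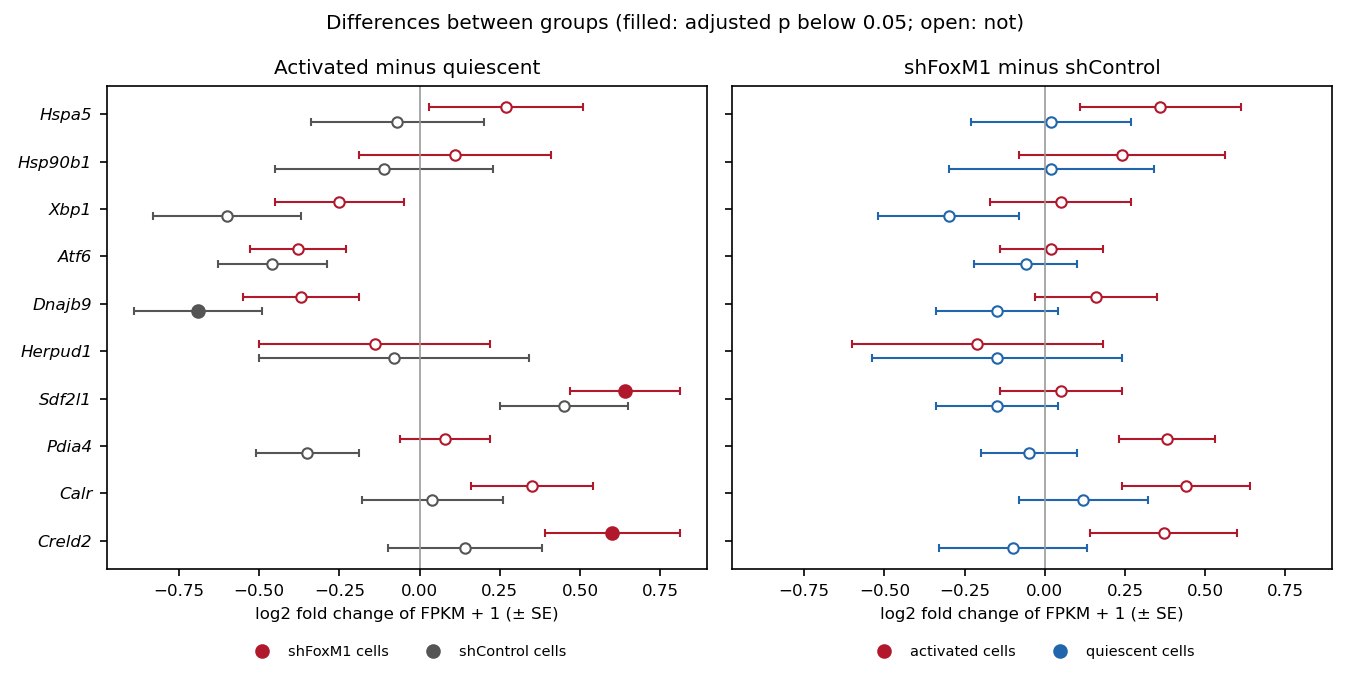
Log2 fold changes of FPKM + 1 with their SE, activated minus quiescent on the left (shFoxM1 above shControl within each gene) and shFoxM1 minus shControl on the right (activated above quiescent); filled points passed the adjusted threshold. Only Dnajb9 in shControl cells (-0.69) and Sdf2l1 (0.64) and Creld2 (0.60) in shFoxM1 cells are filled.

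The second comparison set shFoxM1 against shControl cells in the same state. None of the 10 genes was called in either state. In activated cells limma called 0 genes (0% of 12432), with 978 at an unadjusted p below 0.05, and in quiescent cells it also called 0 (0%), with 263. The groups did not overlap for 2 of the 10 genes in activated cells (9.40% of all genes), Calr and Pdia4, and for 0 of 10 in quiescent cells (3.12%).

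Those 2 genes had the largest differences in activated cells. All 4 activated shFoxM1 libraries had more Calr than the 3 activated shControl libraries, with means of 550 ± 180 and 391 ± 4.80 FPKM (SD), a log2 fold change of 0.44 ± 0.20 (unadjusted p = 0.0491, adjusted p = 0.632, exact permutation p = 0.0571). For Pdia4 the means were 51.9 ± 6.53 and 39.4 ± 2.86 FPKM, and the log2 fold change was 0.38 ± 0.15 (unadjusted p = 0.0236, adjusted p = 0.629, exact permutation p = 0.0571). For both genes, 0.0571 is the smallest exact permutation p that 4 against 3 libraries allow. Without activated shFoxM1 replicate 3 the values were 0.23 for Calr and 0.32 for Pdia4. Creld2 (0.37 ± 0.23) and Hspa5 (0.36 ± 0.25) had overlapping groups and came to 0.12 and 0.08 without that library. In all, 9 of the 10 genes were above 0 in activated cells, with a median of 0.20 beside 0.11 for all genes, and 7 of 10 with a median of 0.06 beside 0.11 without replicate 3. In quiescent cells the 10 differences ran from -0.30 ± 0.22 for Xbp1 to 0.12 ± 0.20 for Calr, with a median of -0.08 beside -0.02 for all genes and adjusted p-values of 1.00.

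The difference between the activation responses of shFoxM1 and shControl cells was called for none of the 10 genes and for 0 genes in all (0%), with 433 at an unadjusted p below 0.05 in limma. The largest value was that of Creld2 (0.47 ± 0.32, adjusted p = 0.993), followed by Pdia4 (0.44 ± 0.22, unadjusted p = 0.0610, adjusted p = 0.993). Thus the calls of Sdf2l1 and Creld2 in shFoxM1 cells and of Dnajb9 in shControl cells were not shown to differ between the hairpins (0.19 ± 0.27 for Sdf2l1 and 0.32 ± 0.27 for Dnajb9).

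The widest departures from a group mean lay in single activated libraries. In activated shFoxM1 replicate 3, 8 of the 10 genes were above their group mean, by a median of 0.42 log2 units over the 10 genes, where the median deviation of all genes was 0.00. Hspa5 was 2.18 times the mean of the other 3 libraries of its group, Creld2 1.95 times, Calr 1.75 times, Xbp1 1.56 times and Hsp90b1 1.55 times. Dnajb9 (1.41), Sdf2l1 (1.40) and Pdia4 (1.20) exceeded that mean less, while Atf6 was at 0.938 and Herpud1 at 0.548 times that mean. The summed level of the 10 genes was 2035 FPKM in this library and 942 to 1350 FPKM in the other 13. It is also the shFoxM1 library with the highest Foxm1 level (2.05 times the mean of the other 3 activated ones); whether these go together was not tested.

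Herpud1 stood out in other libraries. It was 2.22 times the mean of the other libraries in activated shFoxM1 replicate 4 and 3.71 times in activated shControl replicate 3. In the same libraries Hsp90b1 was at 0.448 and 0.561 times that mean. Hspa5 was at 0.670 times in shFoxM1 replicate 4 and at 1.36 times in shControl replicate 3, and Creld2 at 0.570 times in shFoxM1 replicate 4. The means behind 0.670 and 0.570 include shFoxM1 replicate 3, where both genes were highest. In shFoxM1 replicate 4 Hspa5, at 268.80 FPKM, was above replicate 1 (260.76 FPKM), while Creld2, at 28.21 FPKM, was the lowest of its group.

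The same 2 libraries stood apart for the Perk branch, a list of 15 genes that includes Atf4 itself. Many of the list, though not all, are genes that Perk and other kinases of eIF2 are known to raise through Atf4. All 15 were above the group mean in activated shFoxM1 replicate 4, by a median of 0.89 log2 units. They were so in activated shControl replicate 3 too, by 1.45. In shFoxM1 replicate 4 Ppp1r15b was above by 0.037 only, and below replicate 1 (23.77 against 24.73 FPKM). Of the other libraries of these groups, 2 of 15 were above in each shFoxM1 one and 0 and 1 in the shControl ones. The group mean includes the high library, which by itself leaves the others lower against that mean. Atf4, the transcription factor that gives the branch its output, had 178.63, 173.74, 135.01 and 343.50 FPKM in activated shFoxM1 and 143.74, 139.51 and 521.15 FPKM in activated shControl libraries, while quiescent libraries had 115.25 to 166.55 FPKM. Trib3, a pseudokinase induced by Atf4 and chosen here after its values were seen, had 14.01, 6.68, 7.73 and 90.36 FPKM in activated shFoxM1 and 19.79, 4.20 and 132.64 FPKM in activated shControl libraries, beside 4.84 to 9.35 FPKM in quiescent ones. The summed level of the 15 genes was 1218 FPKM in shFoxM1 replicate 4 and 1789 FPKM in shControl replicate 3, and 359 to 540 FPKM in the other 12 libraries. Of the 15 genes, 7, 5, 4 and 11 were above the range of the 7 quiescent libraries in activated shFoxM1 replicates 1 to 4, where 26.8 to 31.6% of all genes tested were, and 3, 1 and 13 in activated shControl replicates 1 to 3, where 20.8 to 27.5% were. The 4 in activated shFoxM1 replicate 3, where Hspa5, Calr and Creld2 were highest, were Ddit3, Asns, Slc7a11 and Atf5, named after their values were seen.

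**Figure D4:**
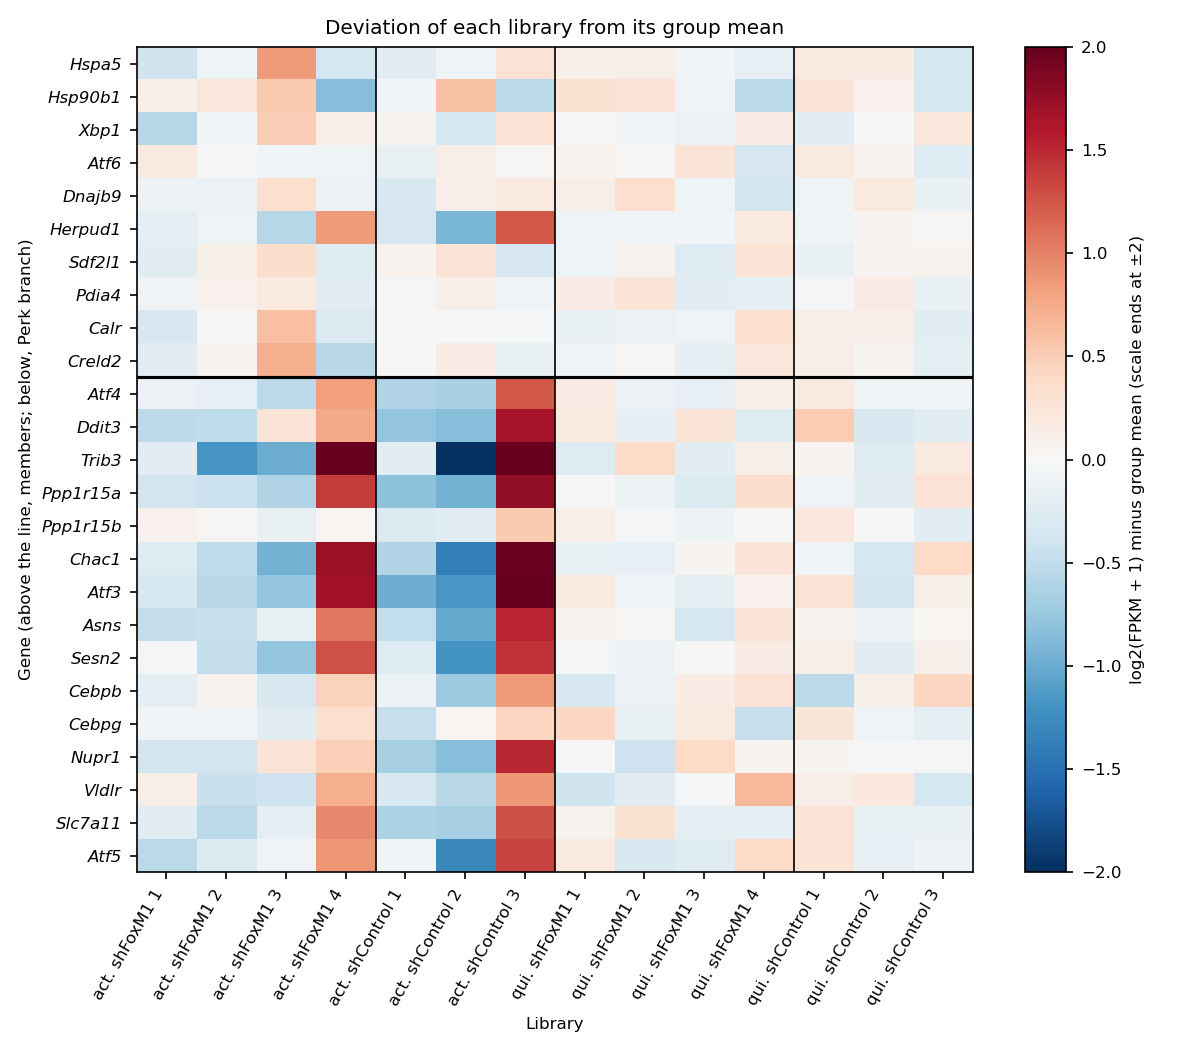
Deviation of log2(FPKM + 1) from the mean of its group for each library (columns) and gene (rows), for the 10 genes above the line and the 15 genes of the Perk branch below it; red is above and blue below the group mean, and colours end at 2 log2 units. Activated shFoxM1 replicate 3 is red for 8 of the 10 genes, whereas activated shFoxM1 replicate 4 and activated shControl replicate 3 are red for all 15 Perk branch genes and for Herpud1.

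Across the 14 libraries with group means subtracted, Pearson's r between Calr and Creld2 was 0.91, and r of Hspa5 was 0.74 with Creld2, 0.73 with Calr, 0.73 with Dnajb9 and 0.59 with Pdia4. Herpud1 had an r of -0.82 with Hsp90b1 and of -0.11 with Hspa5, the latter being 0.33 without activated shFoxM1 replicate 3. The points share libraries and depth, so these values are descriptions. Without activated shFoxM1 replicate 3, r was 0.22 between Hspa5 and Creld2 and 0.23 between Hspa5 and Calr, while Calr and Creld2 (0.76), Hspa5 and Dnajb9 (0.66) and Herpud1 and Hsp90b1 (-0.80) were less moved. Among 8927 genes with a mean of at least 5 FPKM, those whose deviations were most like those of Hspa5 were Arntl (r = 0.95), Vps33a (0.93), Acvr1 (0.93), Slc35b4 (0.92), B4galt1 (0.92), Rragc (0.91), P4ha1 (0.91) and Tmem199 (0.90). In the same order Creld2 stood at rank 119, Calr at rank 130 and Dnajb9 at rank 141, and without activated shFoxM1 replicate 3 at ranks 4619, 4529 and 1003. Without activated shFoxM1 replicate 3 these 8 genes had an r of 0.68 to 0.89 with Hspa5, and none of them was among the nearest 8.

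Other genes of the response were read from lists by role, to be set beside all genes tested, of which 18.3% were called higher and 12.3% lower in shFoxM1 cells (median 0.03) and 11.7% higher and 16.5% lower in shControl cells (median -0.11). Of 10 further sensors and transducers, 0 were called higher and 2 lower on activation in shFoxM1 cells, and 0 higher and 4 lower in shControl cells, with medians of -0.24 and -0.45 beside 0.03 and -0.11 for all genes. Eif2ak3, the gene of Perk, fell in both, with 4.48 ± 1.33 FPKM in activated and 7.01 ± 1.55 in quiescent shFoxM1 cells (-0.56 ± 0.19, adjusted p = 0.0397), and 3.47 ± 0.565 FPKM in activated and 6.72 ± 1.09 in quiescent shControl cells (-0.79 ± 0.22, adjusted p = 0.0170). Creb3l2, a membrane-bound transcription factor related to Atf6, fell in both as well (-0.74 ± 0.16, adjusted p = 0.00335, in shFoxM1 cells and -1.20 ± 0.18, adjusted p = 5.74e-04, in shControl cells). Mbtps1, the protease that makes the first cut in Atf6, and Creb3l1 were called lower in shControl cells (-0.68 ± 0.19, adjusted p = 0.0164, and -1.16 ± 0.34, adjusted p = 0.0203) and not in shFoxM1 cells (-0.29 ± 0.16 and -0.76 ± 0.29). The gene of Ire1, Ern1, had values of -0.23 ± 0.25 in shFoxM1 and -0.58 ± 0.29 in shControl cells, Atf6b, a relative of Atf6, 0.21 ± 0.15 and -0.13 ± 0.17, and Mbtps2, the protease of the second cut, -0.05 ± 0.22 and -0.29 ± 0.26, none of them called.

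Of 36 other chaperones and folding enzymes of the endoplasmic reticulum, 0 were called higher and 9 lower in shFoxM1 cells, and 0 higher and 7 lower in shControl cells, with medians of -0.13 and -0.37. Of all genes 12.3 and 16.5% were lower, and 18.3 and 11.7% higher. The most abundant were P4hb (324 FPKM over all libraries), Ppib (316 FPKM) and Serpinh1 (306 FPKM), which encode a disulfide isomerase, a prolyl isomerase and the collagen chaperone Hsp47. None of these was called. Rcn3, a calcium-binding protein of the lumen, had 17.8 ± 6.82 FPKM in activated and 76.9 ± 18.2 in quiescent shFoxM1 cells (-2.10 ± 0.30, adjusted p = 3.01e-04), and 26.6 ± 9.15 FPKM in activated and 124 ± 50.4 in quiescent shControl cells (-2.16 ± 0.35, adjusted p = 8.13e-04). The prolyl isomerases Fkbp7 (-1.02 and -0.80) and Fkbp14 (-0.94 and -1.10) fell in shFoxM1 and in shControl cells.

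Of 23 tested genes for the degradation of endoplasmic reticulum proteins, 3 were called higher and 3 lower in shFoxM1 cells, and 1 higher and 4 lower in shControl cells, with medians of 0.02 and -0.19. Vcp, the ATPase that extracts proteins from the membrane, was the most abundant (158 FPKM over all libraries), followed by Selenok (94.3 FPKM) and Aup1 (83.9 FPKM). Erlec1, a lectin that recognizes misfolded glycoproteins, fell in both (-0.87 ± 0.19, adjusted p = 0.00396, in shFoxM1 and -0.84 ± 0.22, adjusted p = 0.0124, in shControl cells), as did the mannosidase gene Edem3 (-0.63 ± 0.20 and -0.94 ± 0.24). The gene called higher in shControl cells was Derl2, a membrane protein of the export channel, which was named after its values were seen (0.45 ± 0.13, adjusted p = 0.0200).

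Of the 15 Perk branch genes, 1 was called higher and 0 lower in shFoxM1 cells and none in shControl cells, although the medians were 0.63 and 0.61. Without shFoxM1 replicate 4 the shFoxM1 median was 0.32, with 10 of 15 genes above 0, beside 0.04 for all genes. Without shControl replicate 3 the shControl median was -0.09, with 6 of 15 above 0, beside -0.15 for all genes, and 0 genes of the list were called higher and 2 lower. The fit without that library called 4 higher and 1 lower in shFoxM1 cells, and the one without shFoxM1 replicate 4 called 1 higher and 1 lower there. The called gene, Asns, encodes asparagine synthetase and had 61.16, 62.45, 77.92 and 179.38 FPKM in activated and 30.76, 30.29, 23.04 and 36.01 FPKM in quiescent shFoxM1 libraries, which did not overlap (1.50 ± 0.44, adjusted p = 0.0179). On average over all libraries Atf4 (185 FPKM) was the most abundant of the list, followed by Atf5 (83.8 FPKM) and Asns (67.0 FPKM).

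Of 37 genes for entry into the secretory pathway, 2 were called higher and 1 lower in shFoxM1 cells and 1 higher and 2 lower in shControl cells, with medians of 0.06 and -0.05. Srprb, a subunit of the receptor that docks ribosomes, rose in both (0.58 ± 0.13, adjusted p = 0.00358, and 0.50 ± 0.14, adjusted p = 0.0192), and Tram2, a protein at the translocation channel, fell in both (-0.51 ± 0.15, adjusted p = 0.0213, and -0.97 ± 0.18, adjusted p = 0.00169). Sec24d, a coat protein of vesicles that leave the endoplasmic reticulum, fell in shControl cells (-0.66 ± 0.15, adjusted p = 0.00666). The channel subunits Sec61g (256 FPKM) and Sec61b (210 FPKM) and the signal peptidase subunit Spcs1 (203 FPKM) were the most abundant.

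Heat shock proteins of the cytosol and mitochondria, which serve folding outside the endoplasmic reticulum, were read as well. Of 20, 7 were called higher and 0 lower in shFoxM1 cells and 5 higher and 2 lower in shControl cells, with medians of 0.30 and 0.19. Of all genes, 18.3% were higher and 12.3% lower in shFoxM1 cells and 11.7% higher and 16.5% lower in shControl cells. The mitochondrial chaperonin gene Hspd1 had 292 ± 48.2 FPKM in activated and 128 ± 19.9 in quiescent shFoxM1 cells (1.19 ± 0.22, adjusted p = 0.00134), and 240 ± 57.4 FPKM in activated and 113 ± 37.4 in quiescent shControl cells (1.10 ± 0.25, adjusted p = 0.00581). Cryab, a small heat shock protein of muscle, rose as well (0.81 ± 0.27, adjusted p = 0.0374, and 0.93 ± 0.32, adjusted p = 0.0409). The most abundant were Hsp90ab1 (1057 FPKM), Hspa8 (818 FPKM) and Hspe1 (386 FPKM). The 2 that fell in shControl cells, named after their values were seen, were Hspa2 and Hspa1b, and reads of Hspa1b cannot be told from those of its near-identical copy Hspa1a. With equal protein-coding sums 3 of these 20 were higher and 2 lower in shFoxM1 cells and 2 higher and 4 lower in shControl cells. The same scaling left no gene of the other 5 lists called higher, and called 5 and 7 of the 10 sensors, 15 and 21 of the 36 chaperones, 8 and 11 of the 23 degradation genes, 1 and 1 of the 15 Perk branch genes and 7 and 12 of the 37 entry genes lower in shFoxM1 and in shControl cells. It called 24.1 and 33.8% of all genes lower, and 7.60 and 4.76% higher. No gene of the 6 lists was called for the hairpin in either state or for the difference between the responses, where limma called 0 of all genes.

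**Figure D5:**
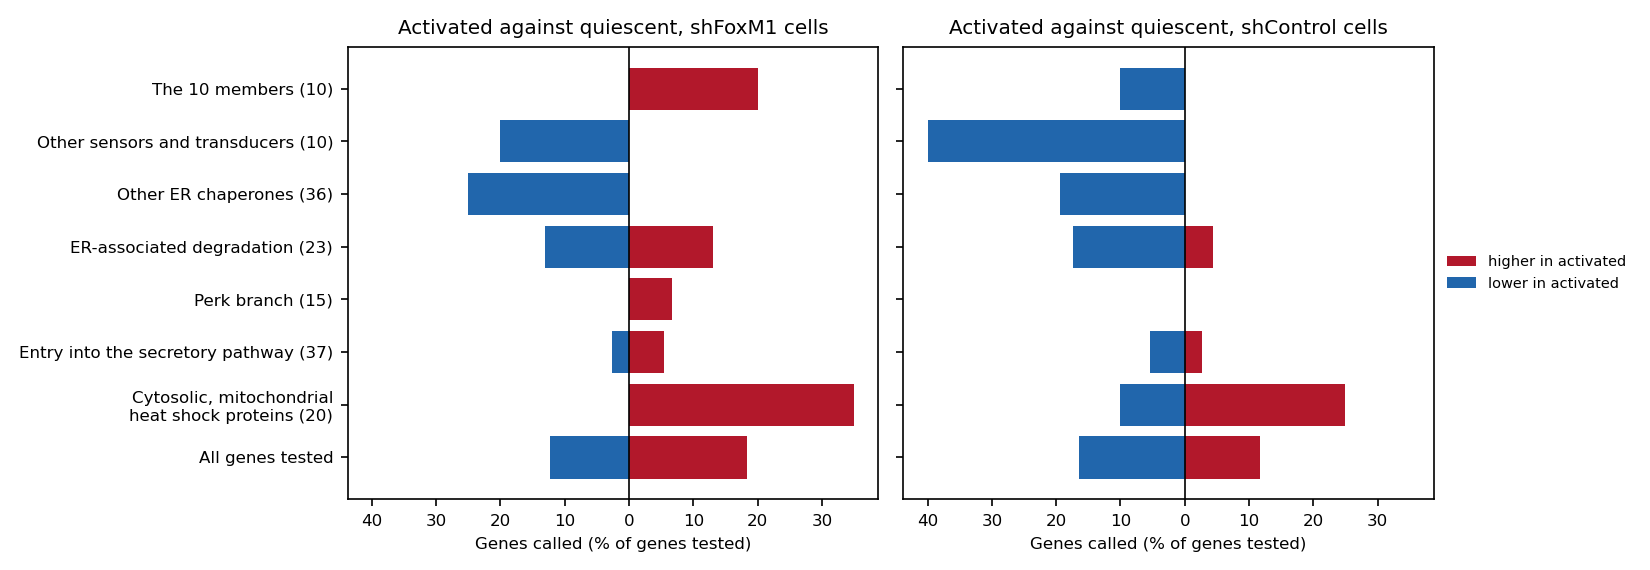
Share of the genes of each list called higher (red, to the right) or lower (blue, to the left) in activated than in quiescent cells, in percent of the genes tested, for shFoxM1 cells on the left and shControl cells on the right; the number of genes tested is in brackets and all 12432 genes are at the bottom. The other sensors and the other chaperones of the endoplasmic reticulum were called lower and never higher, with up to 4 of 10 and 9 of 36, where 12.3% of all genes were called lower in shFoxM1 and 16.5% in shControl cells.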

How the data were processed

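RNA of 14 C2C12 libraries was extracted with Trizol and made into libraries with an Illumina TruSeq RNA kit, per the labels. The deposited table holds FPKM values made by the authors, and the file's name gives GENCODE and RSEM. The mm10 build and the tools Bowtie 0.12.9, Cufflinks 2.1.1 and HTSeq come from the submitters' processing notes; RSEM is not among the names taken from them, and which tool made the FPKM is not given in the sources used here. On filters, strand use and the GENCODE release nothing is given in the sources used here. Of 49585 identifiers, 49326 matched GENCODE M21.

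On the log2(FPKM + 1) scale, limma 3.58.1 (R 4.3.3; 4 group means, empirical Bayes with trend) was run on 12432 genes that reached 1 FPKM in 3 or more libraries, with Benjamini-Hochberg adjusted p-values below 0.05 called, and the code was tested on simulated data. Exact permutation tests were two-sided, on mean log2 values. Depth was estimated from steps of 1 read in low values, of which 92.2 to 94.9% lay within 0.25 of a step. Alternatives covered the pseudocount (0.1), the filter, scaling, groups fitted, variance model, a replicate block and each library left out. The removal of a trend on GC content and length (mgcv 1.9.3) and likeness without a library were added after seeing the data.

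The members and lists were chosen with earlier results of these data known. Genes named are the 10 members, 5 sensor genes, the 3 most abundant of each list and the 2 called with the largest activation difference, the 8 genes most like Hspa5, markers and Foxm1. From these the text gives examples. Promoter sequences are RefSeq's.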

Additional observations from a re-analysis of the deposited data

Results flagged for a closer look

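In groups of 4 libraries, 22 sets of values were screened for a library far from the others, by its gap to the nearest library over the range of the group. Chance marks about 1 in 20 groups, and 4 were marked, past the 95% critical value. Atf6 was high in activated shFoxM1 replicate 1 (16.29 FPKM, against 13.19 to 13.72 in the others). Dnajb9 was high in activated shFoxM1 replicate 3 (10.5 FPKM, against 7.42 to 7.51, gap 0.971 of the range), the library in which Hspa5, Calr and Creld2 were highest too. In quiescent shFoxM1 replicate 4, Herpud1 (36.45 FPKM, against 30.05 to 30.29, gap 0.963) and Calr (526.45 FPKM, against 375.21 to 392.77, gap 0.884) were high. That library also had the lowest Atf6 (14.55 FPKM), Dnajb9 (8.15 FPKM) and Hsp90b1 (156.91 FPKM) of its group and the highest estimated depth of all libraries, 3.62e+07 reads. Its Foxm1 level was 1.90 times the mean of the other 3. Groups of 3 were not screened.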

How the results depend on the processing

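Of the 10 genes, 1 was called on activation in shControl cells. The count was 4 with equal protein-coding sums (Atf6, Dnajb9, Pdia4, Xbp1), 3 with the GC and length trend removed, alone or with the replicate block (Dnajb9, Pdia4, Xbp1), and 0 to 3 with single libraries left out, 0 without activated shControl replicate 1 or quiescent shControl replicate 2. In shFoxM1 cells 2 were called, and 1, Sdf2l1, with no filter or with only the groups compared, and 1 to 4 with single libraries left out, 4 without quiescent shFoxM1 replicate 4. Counts of all genes called ran from 1903 to 4347 in shControl and from 2705 to 4898 in shFoxM1 cells with libraries left out. For the hairpin in quiescent cells 4 genes were called with no filter and 0 to 19 with libraries left out, 19 without quiescent shControl replicate 1 and 3 without replicate 2. In activated cells 1 gene was called with no filter. The difference between responses gave 0 calls under every setting run; it could not be had from only the groups compared.

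Libraries with the same replicate number did not deviate together throughout (r from -0.21 to 0.38, every r over 0.1 in no comparison), so the numbers were not taken as pairs. On activation in shFoxM1 cells, however, every r was above 0 (0.38, 0.089, 0.25 and 0.23 for replicates 1 to 4). The same held for the hairpin in quiescent cells (0.29, 0.026 and 0.0012), while signs were mixed in the other comparisons. With the replicate block 3 of the 10 genes were called in shControl cells (Atf6, Dnajb9, Xbp1) and 1 in shFoxM1 cells (Sdf2l1), with 3983 and 4167 genes called in all.

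Of 1140 alternative values of the 10 genes' differences, 1034 kept sign and side of the threshold, 66 changed sign (called in neither fit, -0.32 to 0.56 after the change), 23 passed and 17 lost it, and 0 called values reversed. Of 1368 counts over the lists, 126 moved, either by over 1.5 times or to or from 0. The cause of these changes was not tested. Counts per gene are not used here, so no counting interval is given.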
